A study of Homo sapiens with 9 samples.

Results

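The LINC RNAs are long noncoding RNAs that carry the systematic symbol LINC followed by a number because no functional name had been assigned to the locus. Of the 1881 LINC genes among the 58884 genes in the files, 106 had a mean of at least 0.5 FPKM (fragments per kilobase of exon, scaled to library depth, a unit inferred from the values) over the 9 libraries. The set described here was chosen by these measured levels, with no use of the differences between groups. A further 945 were at 0 in every library, and 830 lay above 0 and under the threshold. LINC01315, LINC00621 and LINC02482 were just inside it, at 0.501, 0.502 and 0.506 FPKM, and LINC02432, LINC00106 and LINC01629 just outside it, at 0.492, 0.483 and 0.478 FPKM. Because the threshold is a mean over all libraries, a gene high in one group could enter through that group alone. By group mean, 79 of the 106 were at or above 0.5 FPKM in all 3 groups, 9 in control alone, 10 in both exposed groups but not in control, and the other 8 in some other combination. The 9 include LINC00410, LINC02532, LINC01781, LINC02522 and LINC01836. The 10 include LINC00622, LINC01705, LINC02535, LINC01269, LINC01611 and LINC01444. The calls below include such genes, whose place in the set depended on the groups where they were high, so their changes are description only.

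Long intergenic noncoding RNAs are transcribed by RNA polymerase II, spliced and polyadenylated like messenger RNAs, but carry no long open reading frame. They tend to be expressed at low levels and in a cell-type-restricted way. Some act on a neighbouring gene in cis, some in trans through proteins or microRNAs, a few encode small peptides, and most have no known function.

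HK-2 is an established human proximal tubular epithelial cell line, immortalised from adult kidney cortex, and PM2.5 is fine airborne particulate matter. One group received lactoferrin, a milk protein that binds iron, for 6 h and then PM2.5 for 18 h. A second group received PM2.5 for 24 h, and the control cells were labelled untreated, with a vehicle mentioned in the protocol. The titles of the control libraries also name both agents beside the word control, and the libraries were taken as unexposed from their treatment label, on which each comparison with control rests. Each group had 3 libraries of total RNA, and no group received lactoferrin without PM2.5. The submitters' text gives 40 mg/ml lactoferrin and 1 mg/ml PM2.5, concentrations that could not be checked here. The PM2.5 exposure also differed in length between the 2 exposed groups, so pretreatment and exposure time cannot be told apart. The labels do not say whether the libraries of a group came from separate cultures, so p-values measure the spread between these libraries, which may be technical.

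Assigned fragments, recovered from the steps in the FPKM values, ranged from 15313451 to 18820465 per library, of which the LINC set took 0.0706% to 0.0837%. Mitochondrial transcripts took 5.79% to 9.33%. Of 15 genes listed for renal epithelium, not all of them specific to it (VIM is not), 7 averaged at least 1 FPKM. These were PAX8, CDH16, KRT8, KRT18, KRT19, CDH2 and VIM. PAX2, HNF4A, LRP2, CUBN, AQP1, ANPEP, GGT1 and SLC34A1, among them defining proximal tubule markers, were below 1 FPKM. Of 4 fibroblast markers, COL1A1 and LUM exceeded 1 FPKM, and the 4-gene list summed to 50.7 to 55 FPKM with lactoferrin+PM2.5, 66.2 to 68 FPKM with PM2.5 and 48 to 54.3 FPKM in control. The 15-gene renal list summed to 492 to 570.3 FPKM with lactoferrin+PM2.5, 499.7 to 511 FPKM with PM2.5 and 549 to 582 FPKM in control, and the part of either list in the results was not tested. No marker of endothelium, leukocytes, distal nephron or squamous epithelium (4 each) reached 1 FPKM. In bulk RNA, fewer cells of a type and less RNA per cell cannot be told apart.

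The set covered 23 chromosomes, with 11 genes on chromosome 14 and 10 on chromosome 1. GENCODE classes 82 of the 106 as lincRNA, 6 as antisense, 6 as processed transcripts and 6 as transcribed unprocessed pseudogenes. Summed exon length ran from 196 bp to 27605 bp with a median of 1895.5 bp, and the median gene had 4 exons in its longest transcript, against medians of 894 bp and 2 exons for the 1379 other GENCODE lncRNA genes tested. Exons of 31 genes overlap those of another annotated gene. Since the strand setting of the counting is not given in the sources used here, reads of those genes cannot be assigned to one partner with certainty. The pseudogene-type genes may also share reads with their parent copies.

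Levels per length were low and uneven. The median of the mean levels was 1.06 FPKM, against 0.761 FPKM for the other lncRNA genes tested and 5.95 FPKM for the 11606 protein-coding genes tested. Only the LINC set was held to a mean of at least 0.5 FPKM, while the other genes needed that level in 3 libraries. The lower quartile of the other lncRNA genes was 0.507 FPKM, so their median and that of the LINC set are not like for like. Of the 106, 60 reached 1 FPKM, 25 reached 2, 9 reached 5 and 4 reached 10 FPKM. LINC00958 and LINC00973 together held 33.3% of the summed FPKM of the set. In fragments, the median gene had 46.3 per library, with a range of 2.44 to 2745. The spread between libraries of a group followed this depth. The median coefficient of variation was 29.9% in the 55 genes with under 50 fragments, 16.4% in the 34 genes with 50 to 200, and 10.4% in the 17 genes with 200 or more.

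LINC00958, also called BLACAT2 and studied mainly in bladder and other tumours, was the most abundant LINC RNA (ENSG00000251381, chr11:12961842-12989548, minus strand). It had 73.1, 71.8 and 76 FPKM in the lactoferrin+PM2.5 libraries, 61.2, 65.8 and 66.5 FPKM in the PM2.5 libraries and 25.3, 23.5 and 30.8 FPKM in the control libraries. Each exposed library exceeded each control library, and the lactoferrin+PM2.5 libraries were also above the PM2.5 libraries. LINC00973 followed, with 55.6, 45.1 and 41.6 FPKM in the lactoferrin+PM2.5 libraries, 43.2, 37.9 and 41.5 FPKM in the PM2.5 libraries and 32.2, 28.2 and 22.2 FPKM in the control libraries. Its exposed and control libraries did not overlap, while the 2 exposed groups did. LINC02274 was the third by mean, at 15 FPKM, and its level came mainly from the control libraries. The next in order were LINC00839, which averaged 10.1 ± 0.627 FPKM with lactoferrin+PM2.5, 10.4 ± 1.05 FPKM with PM2.5 and 10.5 ± 0.94 FPKM in control (SD, n = 3 each), and LINC00888, LINC01278, LINC00674 and LINC00205, whose means over the 9 libraries were 6.16, 5.52, 5.49 and 5.38 FPKM. The ranges of the last 4 overlapped each other, and LINC00888 and LINC00674 are transcribed pseudogenes.

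**Figure D1:**
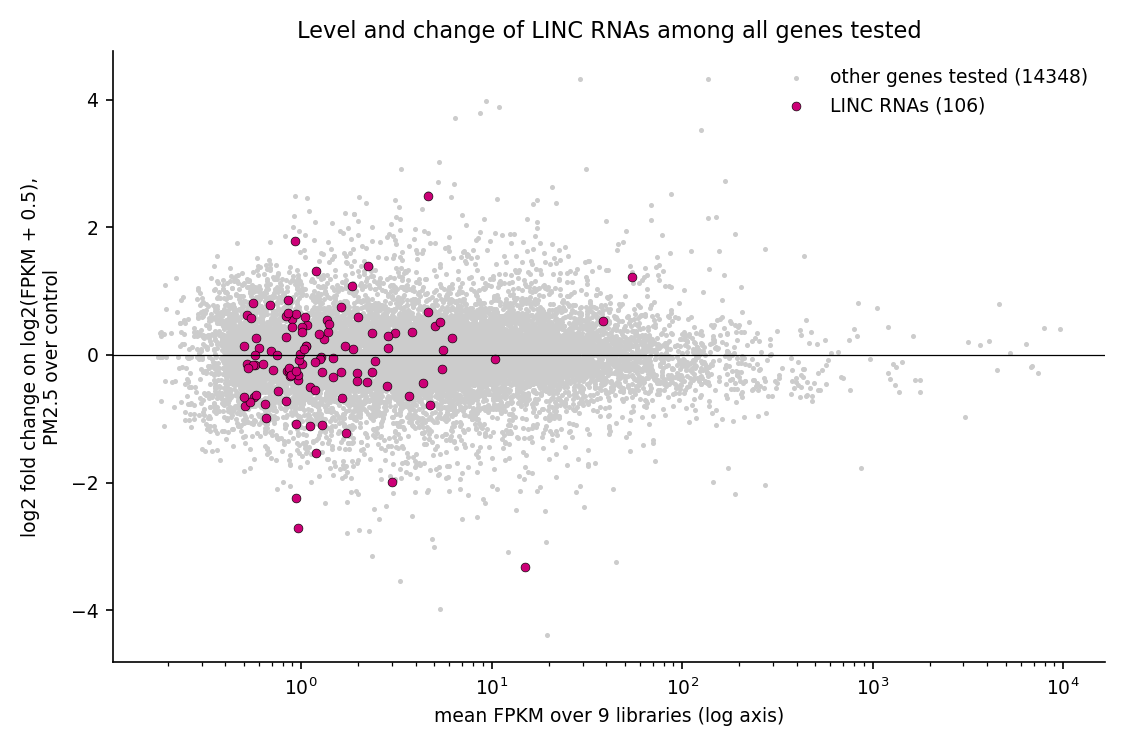
Each point is a gene tested, placed by its mean FPKM over 9 libraries (log axis) and its log2 fold change on the log2(FPKM + 0.5) scale, PM2.5 over control; the 106 LINC RNAs are in colour over the other genes tested. Most LINC RNAs sit near 1 FPKM, and LINC00958 and LINC00973 stand at the right, above 30 FPKM, both above the line of no change.

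The comparison of PM2.5 with control asks which LINC RNAs change with particulate exposure. All 106 genes passed the filter of 0.5 FPKM in at least 3 libraries, and they were tested in a limma fit over 14454 genes, with a call at an adjusted p under 0.05. Higher levels with PM2.5 were called for 21 (19.8%) and lower levels for 19 (17.9%), 37.7% in all. Over all genes tested, 18.7% were called higher and 16.4% lower, 35.1% in all, so the share among LINC RNAs lay near that of the transcriptome. It was 38.4% for protein-coding genes and 25.7% for the other lncRNA genes. The other lncRNA genes were also shorter and less abundant, in a set without the mean threshold, and the part of this in their share was not tested. The median log2 fold change was -0.051 over the LINC RNAs and 0.0034 over all genes. All fold changes were computed from log2(FPKM + 0.5), so changes of low genes are understated. Of the 106 LINC RNAs, 6 were called higher and 9 lower by 2-fold or more on that scale, against 463 and 523 of the 14454 genes tested. Some of them, such as LINC00410, LINC02532, LINC00622 and LINC01705, entered the set through the groups where they were high. The number of LINC RNAs called lower depended on single libraries. It was 10 without control replicate 1 and 12 without control replicate 2, with 103 genes still passing the filter in each case. LINC00410 and LINC02532, both called lower in the full fit, no longer passed it. In these 2 cases 29.4% and 27.0% of all genes were called in either direction. Without PM2.5 replicates 1, 2 and 3 the lower count was 14, 14 and 16, with 25.9%, 27.1% and 26.9% of all genes called. The higher count stayed between 15 and 22 whichever library was left out.

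**Figure D2:**
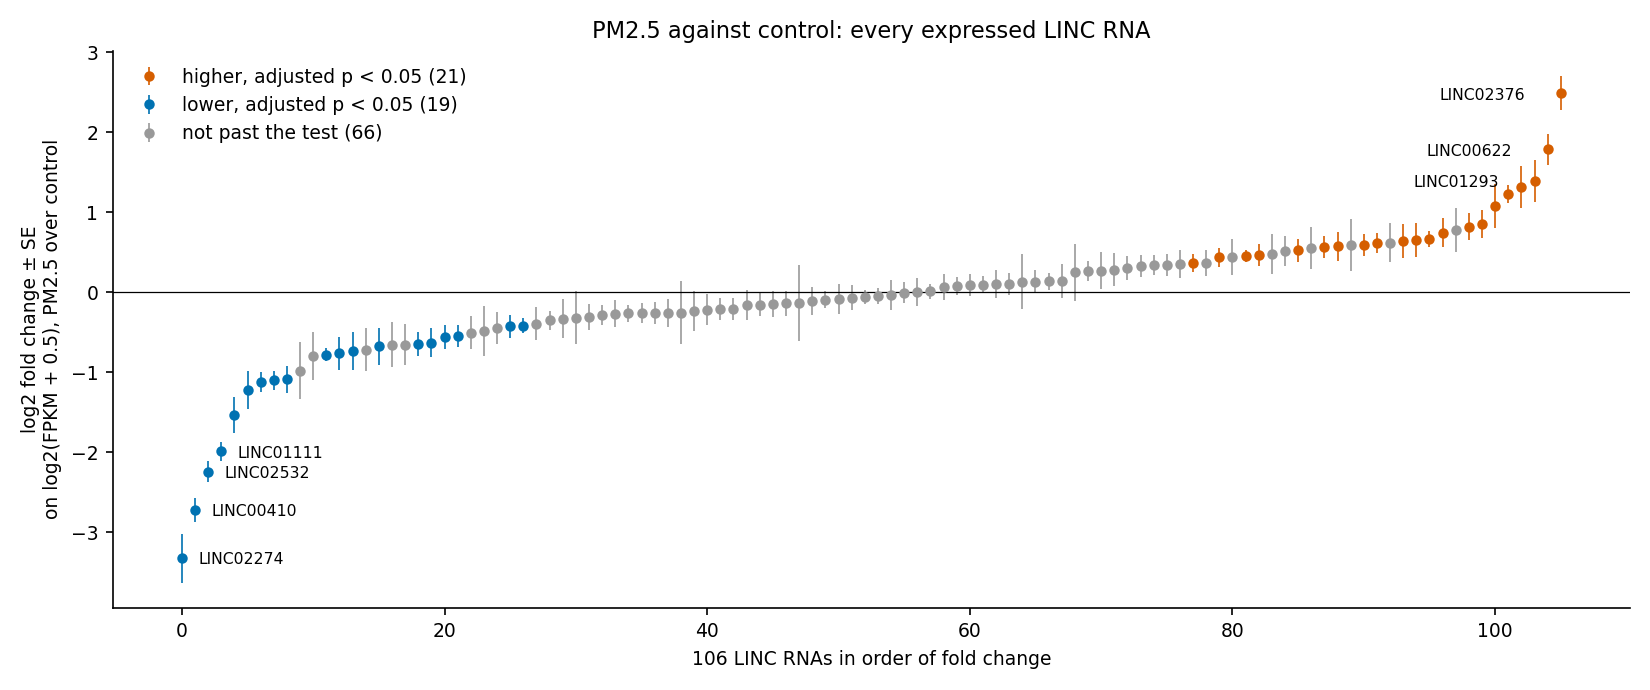
The 106 LINC RNAs in order of log2 fold change, PM2.5 over control, on the log2(FPKM + 0.5) scale; bars are ± 1 SE from the limma fit and colours mark genes past an adjusted p of 0.05. Called increases (21) and decreases (19) occupy both ends, from -3.32 for LINC02274 to 2.49 for LINC02376, with 66 genes not past the test.

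The largest increase on the log2(FPKM + 0.5) scale was that of LINC02376, a multi-exon lincRNA of no known function (ENSG00000256292, chr12:127274467-127284283, minus strand). It had 9.39, 6.36 and 6.94 FPKM in the lactoferrin+PM2.5 libraries, 7.2, 4.77 and 5.33 FPKM in the PM2.5 libraries and 0.902, 0.417 and 0.475 FPKM in the control libraries. The 6 exposed libraries were all above the 3 control libraries, with no overlap. In the control libraries, 1 fragment on 1 kb of exon is 0.0573 to 0.0653 FPKM, and the exons of LINC02376 sum to 724 bp. Its control level thus rests on few fragments. The log2 fold change with PM2.5 was 2.49 ± 0.21 (SE), with an adjusted p = 4.35e-05. Its nearest protein-coding gene, TMEM132C, lies 983120 bp away and was listed at 0 in every library.

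LINC00622, a single-exon gene on chromosome 1 (ENSG00000260941, chr1:119597702-119599271, minus strand), was nearly silent in control. It had 0.778, 1.225 and 1.7 FPKM in the lactoferrin+PM2.5 libraries, 1.78, 1.38 and 1.27 FPKM in the PM2.5 libraries and 0.0416, 0.0385 and 0.11 FPKM in the control libraries. In fragments, the control libraries held 1, 1 and 3, so the control level rests on 5 fragments in all. The exposed and control libraries did not overlap, and the log2 fold change was 1.79 ± 0.20 (adjusted p = 0.000197). Under alternative settings of the fit that change reached 4.21, against at most 3.2 for LINC02376, so the order of these increases depends on the settings.

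LINC01293, on chromosome 2, had 2.52, 2.44 and 4.07 FPKM in the lactoferrin+PM2.5 libraries, 1.61, 3.96 and 3.45 FPKM in the PM2.5 libraries and 0.619, 0.716 and 0.906 FPKM in the control libraries. PM2.5 replicate 1 was the lowest exposed library and was still above each control library, and the log2 fold change was 1.39 ± 0.27 (adjusted p = 0.00387). LINC01291, 1840 bp away on the same strand, had a log2 fold change of 0.34 and did not pass the test (adjusted p = 0.0546). LINC01705, on chromosome 1, had 1.89, 1.35 and 2.04 FPKM in the lactoferrin+PM2.5 libraries, 1.62, 0.892 and 2.02 FPKM in the PM2.5 libraries and 0.581, 0.215 and 0.102 FPKM in the control libraries. Its exposed and control libraries did not overlap either, on 1 to 5 fragments per control library, and it rose by 1.32 ± 0.26 on the log2 scale (adjusted p = 0.00467).

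LINC00958 combined the highest level with a called increase, at a log2 fold change of 1.23 ± 0.11 (adjusted p = 6.62e-05), and LINC00973 rose by 0.53 ± 0.15 (adjusted p = 0.0209). LINC00685 rose by 1.08 ± 0.28 (adjusted p = 0.0144), with means of 2.54 ± 1.12 FPKM with lactoferrin+PM2.5, 2.27 ± 0.664 FPKM with PM2.5 and 0.757 ± 0.0493 FPKM in control (SD, n = 3 each). It lies in the pseudoautosomal region, where the X and Y copies cannot be told apart, and without PM2.5 replicate 1 its log2 fold change of 0.89 no longer passed the test (adjusted p = 0.0548). The control level of LINC00685, with 428 bp of exon, also rests on few fragments. LINC02535, a spliced lincRNA on chromosome 6, had 1.1, 1.16 and 1.19 FPKM in the lactoferrin+PM2.5 libraries, 0.898, 1.29 and 1.02 FPKM in the PM2.5 libraries and 0.156, 0.457 and 0.456 FPKM in the control libraries. Every exposed library was above every control library, and the log2 fold change was 0.86 ± 0.17 (adjusted p = 0.00483).

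LINC01234, LINC00638 and LINC01269 complete the 10 largest called increases. LINC01234, studied in gastric and other tumours, averaged 5.27 ± 0.594 FPKM with lactoferrin+PM2.5, 5.51 ± 0.247 FPKM with PM2.5 and 3.18 ± 0.223 FPKM in control (SD, n = 3 each), which gave a log2 fold change of 0.67 ± 0.10 with PM2.5 (adjusted p = 0.00114). LINC00638, which RefSeq now names VESTAR, rose by 0.74 ± 0.18 (adjusted p = 0.011). LINC01269 rose by 0.82 ± 0.17 (adjusted p = 0.00515), on 7 to 12 fragments per PM2.5 library and 2 to 3 per control library. The other 10 genes called higher had log2 fold changes between 0.36 and 0.66.

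LINC02274 showed the largest decrease and was the third most abundant LINC RNA by mean (ENSG00000258586, chr14:73822559-73830135, minus strand). It had 6.52, 3.42 and 3.3 FPKM in the lactoferrin+PM2.5 libraries, 2.38, 3.13 and 4.69 FPKM in the PM2.5 libraries and 33.5, 28.9 and 48.9 FPKM in the control libraries. The lowest control library was above the highest exposed library by a wide margin, while control replicate 3 was the highest of its group. The log2 fold change with PM2.5 was -3.32 ± 0.31 (adjusted p = 6.45e-05). In control its mean of 37.1 ± 10.5 FPKM stood above those of LINC00958 and LINC00973, 26.5 ± 3.79 and 27.6 ± 5.04 FPKM (SD, n = 3 each), but its lowest control library was below the highest of both.

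LINC00410 was close to absent after exposure (ENSG00000231674, chr13:90890954-90926597, minus strand) and entered the set through the control libraries alone. It had 0.0527, 0 and 0.063 FPKM in the lactoferrin+PM2.5 libraries, 0, 0 and 0.0563 FPKM in the PM2.5 libraries and 2.82, 2.6 and 3.12 FPKM in the control libraries. The control libraries held 284 fragments in all, against 2 in the PM2.5 libraries, a depth-adjusted ratio of 0.00641 (95% exact interval 0.000773 to 0.0234, counting error only). The fitted log2 fold change of -2.72 ± 0.15 (adjusted p = 4.24e-06) depends on the pseudocount. Under alternative settings of the fit it reached -6.98, and that of LINC02532 reached -4.15, against -3.53 for LINC02274. The order of these decreases thus depends on the settings. The lactoferrin+PM2.5 libraries held 4 fragments, a ratio to control of 0.0134 (0.00363 to 0.0348).

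LINC02532, on chromosome 6 and reported in kidney cancer studies, had 0.158, 0.112 and 0.17 FPKM in the lactoferrin+PM2.5 libraries, 0.127, 0.0991 and 0.227 FPKM in the PM2.5 libraries and 2.75, 2.52 and 2.28 FPKM in the control libraries. The exposed libraries were all below 0.23 FPKM and the control libraries all above 2.2 FPKM, so LINC02532 also entered the set through control alone. The log2 fold change was -2.24 ± 0.14 (adjusted p = 6.04e-06). LINC01111, on chromosome 8, had 1.37, 0.946 and 1.15 FPKM in the lactoferrin+PM2.5 libraries, 1.26, 1.24 and 1.47 FPKM in the PM2.5 libraries and 6.17, 6.94 and 6.48 FPKM in the control libraries, with a log2 fold change of -1.99 ± 0.11 (adjusted p = 4.76e-06) and exons that overlap LINC01109. In both genes the control libraries lay above all exposed libraries.

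LINC01698 had 1.13, 0.784 and 0.641 FPKM in the lactoferrin+PM2.5 libraries, 0.602, 0.687 and 0.191 FPKM in the PM2.5 libraries and 2.49, 2.44 and 1.86 FPKM in the control libraries. The control libraries lay above all exposed ones, while the 2 exposed groups overlapped, and it fell by 1.53 on the log2 scale (SE 0.22, adjusted p = 0.000879). LINC02321 averaged 1.33 ± 0.526 FPKM with lactoferrin+PM2.5, 1.01 ± 0.37 FPKM with PM2.5 and 2.85 ± 0.134 FPKM in control (SD, n = 3 each), which gave a log2 fold change of -1.22 ± 0.23 with PM2.5 (adjusted p = 0.00368). LINC02015 and LINC01559 had log2 fold changes of -1.10 ± 0.12 and -1.09 ± 0.17 (adjusted p = 0.000168 and 0.00127).

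LINC00467, reported to encode a small mitochondrial peptide, had 0.908, 0.878 and 0.657 FPKM in the lactoferrin+PM2.5 libraries, 0.495, 0.676 and 0.715 FPKM in the PM2.5 libraries and 1.85, 1.86 and 1.95 FPKM in the control libraries. All exposed libraries were under 1 FPKM and all control libraries near 1.9 FPKM, with a log2 fold change of -1.12 ± 0.13 (adjusted p = 0.000213). LINC01578 is CHASERR, a conserved lncRNA just upstream of CHD2, a chromatin remodeller gene whose output the mouse counterpart restrains. It had 4.08, 3.75 and 3.99 FPKM in the lactoferrin+PM2.5 libraries, 3.64, 3.74 and 3.74 FPKM in the PM2.5 libraries and 7.12, 6.68 and 5.82 FPKM in the control libraries, a log2 fold change of -0.78 ± 0.08 (adjusted p = 0.000122). CHD2 itself averaged 3.99 ± 0.632 FPKM with PM2.5 and 5.78 ± 1.11 FPKM in control (SD, n = 3 each), which gave a log2 fold change of -0.52 ± 0.17 (adjusted p = 0.0361). LINC01578 and CHD2 thus both fell. The other 9 genes called lower had log2 fold changes between -0.76 and -0.41.

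**Figure D3:**
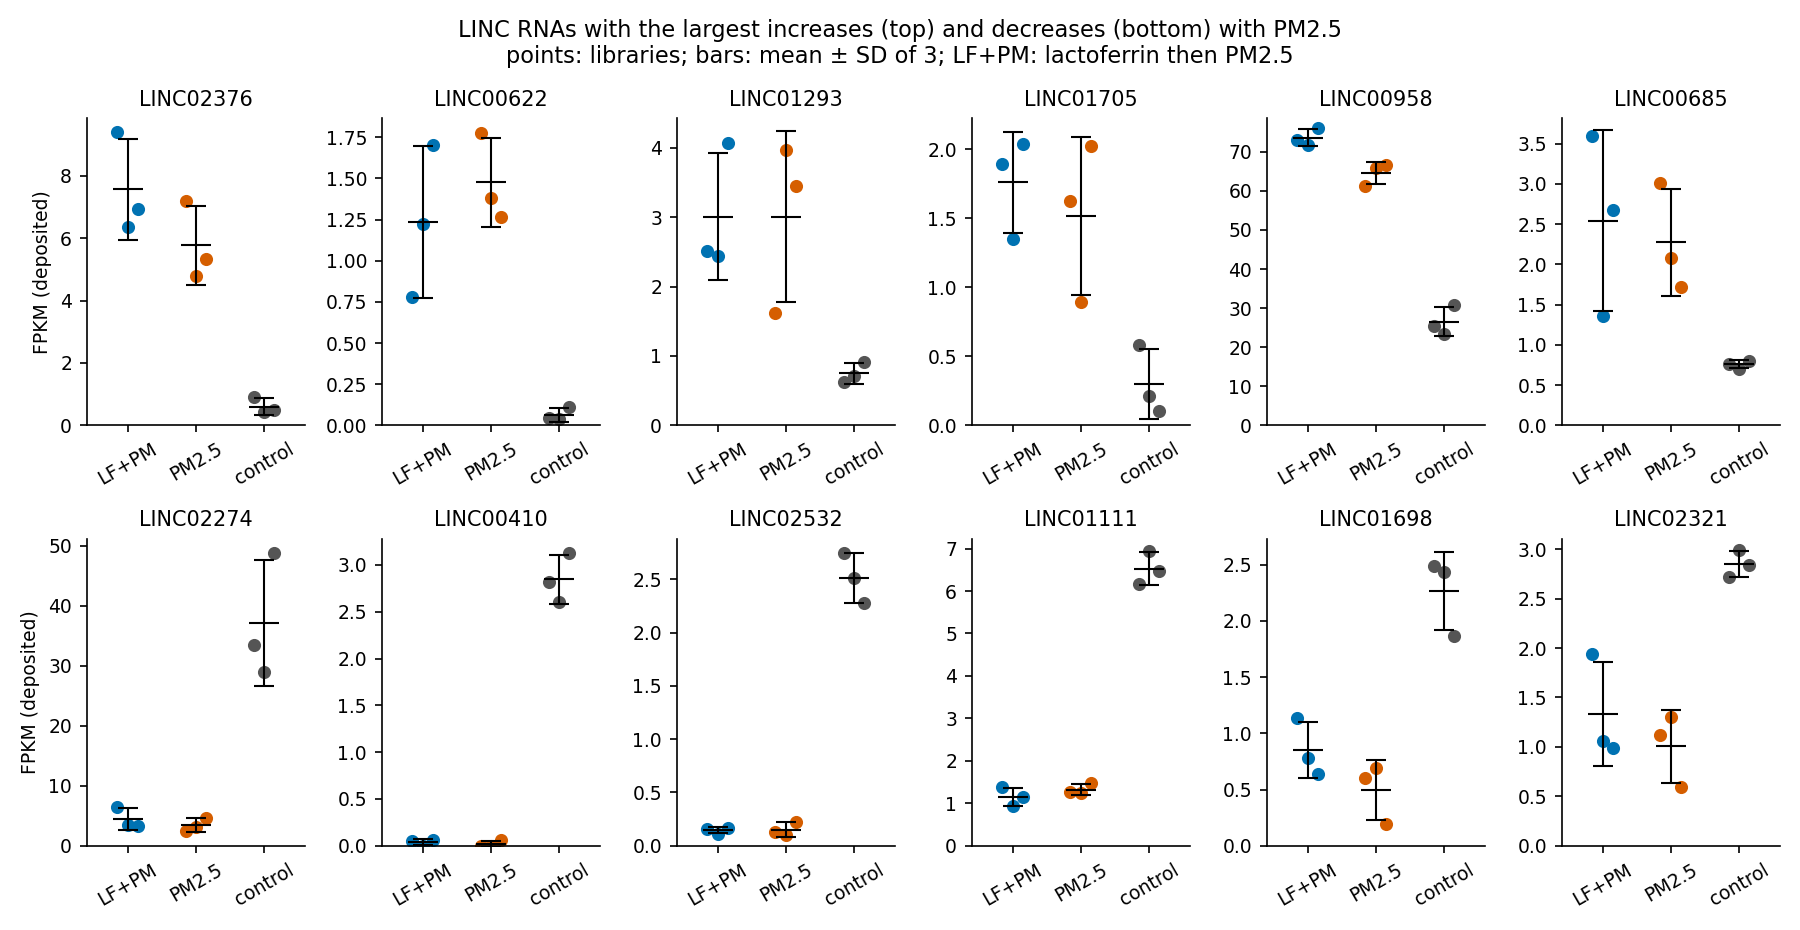
FPKM of 12 LINC RNAs in each library (points) with the mean ± SD of 3 libraries (bars), on a linear axis per gene; LF+PM is lactoferrin followed by PM2.5. The top row holds the 6 largest called increases with PM2.5 and the bottom row the 6 largest called decreases; in each panel the control points lie apart from the points of both exposed groups.

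Among 12 expressed LINC RNAs with published roles, most of them in tumour cells, 4 rose and 3 fell with PM2.5, 58.3% of a short list, against 18.7% higher, 16.4% lower and 35.1% in all over the genes tested. The increases were those of LINC00958, LINC00973 and LINC01234, given above, and of LINC00665, with a log2 fold change of 0.45 ± 0.08 (adjusted p = 0.002). The decreases were those of LINC00467, of LINC01503 (-0.63 ± 0.18, adjusted p = 0.0227) and of LINC00662 (-0.41 ± 0.09, adjusted p = 0.00863). LINC00511, LINC00472, LINC00963, LINC01116 and LINC01315 did not pass the test, with log2 fold changes of 0.01, -0.27, -0.26, -0.44 and 0.15. LINC01116 lies beside the HOXD cluster, where it overlaps LINC01117 on the opposite strand, so reads of that pair are uncertain. It had 4.53, 4.51 and 3.28 FPKM in the lactoferrin+PM2.5 libraries, 3.43, 3.28 and 4.62 FPKM in the PM2.5 libraries and 6.52, 5.62 and 3.57 FPKM in the control libraries, and the control and PM2.5 libraries overlapped.

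The share called with PM2.5 was 36.4% of the genes with under 50 fragments, 32.4% of those with 50 to 200 and 52.9% of the 17 genes with 200 or more, against 35.1% of all genes tested, and was not ordered by depth. The standard error of the log2 fold change ran from 0.08 to 0.48 over the 106 genes, and the smallest change called was 0.36 upward and 0.41 downward.

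RefSeq promoter windows, from 250 bases before to 50 bases after the gene start on GRCh38.p14, matched 79 of the 106 genes, 69 by symbol and 10 by an older symbol. In 56 the RefSeq start lay within 100 bp of a GENCODE start. The windows that follow are shown because they belong to the largest called increase and decrease with such a start, LINC02376 and LINC00410, and to the 5 genes called higher, also with such a start, whose windows hold the letters of the antioxidant response element. This element, TGACNNNGC in the form searched, is the sequence bound by NRF2 with small MAF proteins. Capitals mark matches on either strand to that element, to AP-1 (TGANTCA), to the cAMP response element (TGACGTCA), to the core of the xenobiotic response element (GCGTG), to the E-box (CACGTG) or to an NF-kB site.
LINC02376 (chr12:127284234-127284533, minus strand): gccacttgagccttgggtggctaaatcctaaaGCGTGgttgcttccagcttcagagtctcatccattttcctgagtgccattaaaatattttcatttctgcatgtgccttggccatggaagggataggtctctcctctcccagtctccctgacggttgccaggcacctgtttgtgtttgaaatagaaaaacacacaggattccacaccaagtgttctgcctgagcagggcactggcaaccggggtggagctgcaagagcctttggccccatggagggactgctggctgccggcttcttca
LINC01269 (chr14:70698448-70698747, plus strand): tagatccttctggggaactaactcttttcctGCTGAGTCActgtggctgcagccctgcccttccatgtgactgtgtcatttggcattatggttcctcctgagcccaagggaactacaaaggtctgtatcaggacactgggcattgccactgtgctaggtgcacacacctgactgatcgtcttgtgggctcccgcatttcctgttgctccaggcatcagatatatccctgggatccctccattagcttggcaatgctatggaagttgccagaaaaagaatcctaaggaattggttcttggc
LINC01234 (chr12:113773634-113773933, minus strand): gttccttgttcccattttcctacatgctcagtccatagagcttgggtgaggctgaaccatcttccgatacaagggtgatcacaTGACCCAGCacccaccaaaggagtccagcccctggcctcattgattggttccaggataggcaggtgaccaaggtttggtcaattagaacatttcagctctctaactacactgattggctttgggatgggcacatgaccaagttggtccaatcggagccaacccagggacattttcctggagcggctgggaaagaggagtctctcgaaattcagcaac
LINC01220 (chr14:75294154-75294453, plus strand): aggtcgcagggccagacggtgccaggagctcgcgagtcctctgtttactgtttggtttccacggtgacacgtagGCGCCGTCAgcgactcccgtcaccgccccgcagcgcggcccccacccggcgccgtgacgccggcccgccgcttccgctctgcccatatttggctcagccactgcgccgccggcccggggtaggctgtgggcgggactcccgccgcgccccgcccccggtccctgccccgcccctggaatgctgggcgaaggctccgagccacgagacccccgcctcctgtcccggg
LINC00665 (chr19:36331669-36331968, minus strand): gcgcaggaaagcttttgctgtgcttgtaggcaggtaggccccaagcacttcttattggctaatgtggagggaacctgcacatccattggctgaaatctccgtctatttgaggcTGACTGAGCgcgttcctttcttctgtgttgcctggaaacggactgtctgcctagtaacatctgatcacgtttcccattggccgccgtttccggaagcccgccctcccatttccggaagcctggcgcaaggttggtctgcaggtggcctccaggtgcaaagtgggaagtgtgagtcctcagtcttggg
LINC02210 (chr17:45620079-45620378, plus strand): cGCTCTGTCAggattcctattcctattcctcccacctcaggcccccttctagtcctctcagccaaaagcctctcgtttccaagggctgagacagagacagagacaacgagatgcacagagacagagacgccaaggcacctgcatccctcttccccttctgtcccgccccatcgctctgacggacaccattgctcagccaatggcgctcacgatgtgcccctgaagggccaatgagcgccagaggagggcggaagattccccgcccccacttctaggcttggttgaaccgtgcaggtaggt
LINC00410 (chr13:90926548-90926847, minus strand): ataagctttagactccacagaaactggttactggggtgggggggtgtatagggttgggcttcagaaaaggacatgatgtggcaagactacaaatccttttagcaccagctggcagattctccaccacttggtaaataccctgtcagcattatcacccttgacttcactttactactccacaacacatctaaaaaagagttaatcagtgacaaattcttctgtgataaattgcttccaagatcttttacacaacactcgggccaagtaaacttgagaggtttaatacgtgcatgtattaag

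The capitals in LINC02376 are the core of the xenobiotic response element, those in LINC01269 an antioxidant response element that overlaps an AP-1 match, and those in the other 4 genes called higher an antioxidant response element alone. LINC00410 held none of the 6 motifs. The bases after the LINC02210 start were not found in its GENCODE transcripts, unlike those of the other 6 windows. Among the matched genes, the antioxidant response element letters were in 8 of 16 windows of genes called higher with PM2.5 (50%), in 2 of 11 windows of genes called lower (18.2%) and in 8 of 52 windows of genes not called (15.4%). Over all 35116 RefSeq promoters of that length the share was 13.3%. With the windows limited to a RefSeq start within 100 bp of a GENCODE start, the counts were 5 of 10, 2 of 9 and 8 of 37. AP-1 letters were in 4 of 16, 0 of 11 and 3 of 52 windows, against 7.71% of all promoters. With the windows limited in the same way, the AP-1 counts were 2 of 10, 0 of 9 and 2 of 37. Some AP-1 matches lie inside an antioxidant response element match.

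The xenobiotic response element core occurred in 3 of 16, 1 of 11 and 18 of 52 windows of genes called higher, lower and not called, against 36.5% of all promoters. The E-box occurred in 1, 1 and 8 of them (7.26% of all promoters), the cAMP response element in 0, 0 and 2 (1.85%) and the NF-kB site in 0, 2 and 3 (11.3%). Base composition also differed between these sets, and its part in the motif counts was not tested. The median window held 4.5 CpG dinucleotides in genes called higher and 3 in genes called lower, against 21.5 in genes not called and 14 in all promoters, and the median GC content was 50.8%, 51.0%, 64.8% and 58.7%. A match is a run of letters in the window, not a measured binding site.

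The nearest protein-coding gene was measured well enough to test for 74 of the 106 LINC RNAs (70 different genes). Among these pairs, 24 LINC RNAs and 30 neighbours were called, against 35.1% of all genes tested. The fold changes of the LINC RNA and its neighbour had the same sign in 44 of the 74 pairs, and across pairs Pearson's r of the 2 log2 fold changes was 0.21 and Spearman's rho 0.22, as a description over pairs measured in the same libraries. Within 50 kb, 28 of 52 pairs had the same sign and r was 0.09, and over 50 kb 16 of 22 had it and r was 0.37. Both partners passed the test in 12 pairs, in the same direction in 7 and in opposite directions in 5. Of the 8 of these that lay within 50 kb, 4 had the same direction and 4 opposite directions. With 24 LINC RNAs and 30 neighbours called among the 74 pairs, some pairs have both partners called without any link. A link was not tested, and the pairs below are description only.

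Of the pairs that rose together, LINC02535 lies 59398 bp from NT5E, which encodes the ectonucleotidase that forms extracellular adenosine. NT5E averaged 22 ± 0.911 FPKM with PM2.5 and 3.54 ± 0.194 FPKM in control (SD, n = 3 each), which gave a log2 fold change of 2.43 ± 0.10 (adjusted p = 9.38e-07). LINC00622 lies 20151 bp from ZNF697 on the same strand, and this zinc finger gene averaged 15.9 ± 0.581 FPKM with PM2.5 and 6.15 ± 0.383 FPKM in control (SD, n = 3 each; log2 fold change 1.26 ± 0.11, adjusted p = 5.3e-05). LINC01220, with a log2 fold change of 0.64 ± 0.21 (adjusted p = 0.0391), lies 12174 bp from FOS, an AP-1 subunit, which rose by 0.38 ± 0.10 (adjusted p = 0.018). LINC01234 and RBM19, a ribosome biogenesis gene, and LINC01269 and MAP3K9, a mixed-lineage kinase gene, rose in the same way, with neighbour log2 fold changes of 0.52 ± 0.10 and 0.60 ± 0.17 (adjusted p = 0.00465 and 0.0258).

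The pairs that fell together were LINC01111 with ZFHX4, a homeobox transcription factor gene 156863 bp away (-1.22 ± 0.24, adjusted p = 0.00398), and LINC01503 with IER5L (-0.72 ± 0.17, adjusted p = 0.0103). Among the opposite pairs were LINC00958 and TEAD1, the Hippo pathway transcription factor gene, 17359 bp apart and convergent. TEAD1 averaged 9.58 ± 1.54 FPKM with PM2.5 and 20.2 ± 1.79 FPKM in control (SD, n = 3 each), which gave a log2 fold change of -1.09 ± 0.16 (adjusted p = 0.000914), while LINC00958 rose. LINC01128 rose and SAMD11 fell by 1.55 (adjusted p = 0.000158), and LINC01094 rose and ANXA3, an annexin gene, fell by 0.96 (adjusted p = 0.000589). LINC02321 and LINC01836 fell, while TTC7B and the splicing regulator gene PTBP1 rose by 0.36 and 0.35 (adjusted p = 0.0151 and 0.0236). None of the 8 LINC RNAs that start head to head within 2000 bp of a protein-coding gene was called with PM2.5, against 37.7% of the LINC RNAs and 35.1% of all genes tested.

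**Figure D4:**
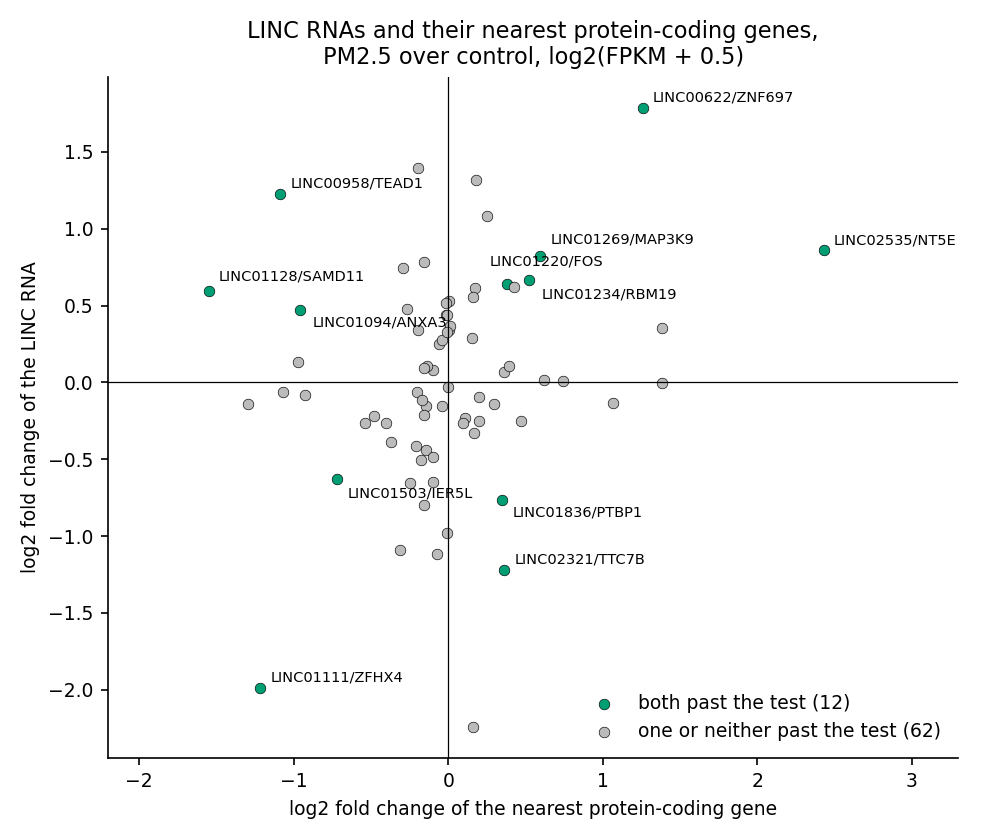
Log2 fold change of 74 LINC RNAs (vertical) against that of the nearest protein-coding gene (horizontal), both PM2.5 over control on the log2(FPKM + 0.5) scale; filled green points are the 12 pairs in which both passed the test. LINC02535 with NT5E and LINC00622 with ZNF697 lie at the upper right, LINC01111 with ZFHX4 at the lower left and LINC00958 with TEAD1 at the upper left.

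The comparison of lactoferrin+PM2.5 with PM2.5 asks whether pretreatment alters the response. No LINC RNA was called higher or lower, against 0.0208% and 0.0277% of all genes tested, 0.0484% in all (7 of 14454), and the smallest adjusted p was 0.38. limma-voom on rebuilt fragments also called 0, whereas limma with library weights, an alternative added after seeing the data, called 4 higher and 6 lower, 9.43% of the LINC RNAs against 12.6% of all genes. At an unadjusted p under 0.05 there were 7 of the 106 LINC RNAs, against 12.2% of all genes. The log2 fold changes ran from -0.48 to 0.65 with a median of 0.014, against 0.005 over all genes.

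LINC01269, LINC00638 and LINC00205 had nominal changes in opposite directions in this comparison and in PM2.5 against control, and the 2 comparisons share the PM2.5 libraries. LINC00638 had 1.01, 1.41 and 2.2 FPKM in the lactoferrin+PM2.5 libraries, 2.15, 2.17 and 2.3 FPKM in the PM2.5 libraries and 1.24, 1.15 and 0.865 FPKM in the control libraries. The lactoferrin+PM2.5 libraries overlapped the PM2.5 group, and replicate 1 was the lowest of them, with a log2 fold change over PM2.5 of -0.44 ± 0.18 (unadjusted p = 0.0348, adjusted p = 0.397). LINC00205, a bidirectional-promoter lncRNA, had 3.12, 5.11 and 6.62 FPKM in the lactoferrin+PM2.5 libraries, 6.34, 6.64 and 7.35 FPKM in the PM2.5 libraries and 4.29, 4.69 and 4.31 FPKM in the control libraries. Here replicate 1 was again the lowest lactoferrin+PM2.5 library and was below the control libraries too, while replicate 3 overlapped the PM2.5 group (log2 fold change -0.46 ± 0.19, adjusted p = 0.397).

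LINC01269 had 0.53, 0.581 and 0.422 FPKM in the lactoferrin+PM2.5 libraries, 0.892, 1.11 and 0.66 FPKM in the PM2.5 libraries and 0.217, 0.301 and 0.286 FPKM in the control libraries, so that the 3 lactoferrin+PM2.5 libraries lay between the other groups (log2 fold change over PM2.5 -0.44 ± 0.17, adjusted p = 0.384). The other 4 genes with an unadjusted p under 0.05 were named after their values were seen. LINC02298, LINC02454 and LINC01094 had log2 fold changes of 0.48 ± 0.18, 0.34 ± 0.14 and 0.33 ± 0.14, and LINC00265 one of -0.48 ± 0.19, with adjusted p of 0.38 to 0.397.

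The third comparison, lactoferrin+PM2.5 with control, shares the control libraries with the first, so the 2 sets of calls are not independent and the values are given side by side. With lactoferrin+PM2.5, 23 LINC RNAs were called higher and 21 lower, 41.5% in all, against 20.4% and 18.2% of all genes tested, 38.5% in all, and the median log2 fold change was -0.054, against 0.0038 over all genes. The lower count was 13 without control replicate 2, where 29.8% of all genes were called in either direction. LINC02376 had log2 fold changes over control of 2.86 ± 0.21 with lactoferrin+PM2.5 and 2.49 ± 0.21 with PM2.5, LINC00958 of 1.43 ± 0.11 and 1.23 ± 0.11, and LINC00622 of 1.58 ± 0.20 and 1.79 ± 0.20. Among the decreases, LINC02274 had -3.0 ± 0.31 with lactoferrin+PM2.5 and -3.32 ± 0.31 with PM2.5, LINC01111 -2.12 ± 0.11 and -1.99 ± 0.11, and LINC01698 -1.07 ± 0.22 and -1.53 ± 0.22. For none of these did the 2 exposed groups differ past the test.

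Some genes ranked among the 10 largest changes only in this comparison. LINC01611 had 1.36, 0.708 and 0.943 FPKM in the lactoferrin+PM2.5 libraries, 1.09, 0.376 and 0.996 FPKM in the PM2.5 libraries and 0.0881, 0.407 and 0.232 FPKM in the control libraries, with a log2 fold change of 1.00 ± 0.27 (adjusted p = 0.0178) and, with PM2.5, of 0.78 ± 0.27 (adjusted p = 0.0517). PM2.5 replicate 2 overlapped the control group there. LINC01444 rose by 0.87 ± 0.22 with lactoferrin+PM2.5 and 0.66 ± 0.22 with PM2.5 (adjusted p = 0.0115 and 0.041). LINC02416 rose by 0.81 ± 0.26 with lactoferrin+PM2.5 (adjusted p = 0.035), and its 0.55 ± 0.26 with PM2.5 did not pass the test (adjusted p = 0.13).

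LINC01781 had log2 fold changes of -1.06 ± 0.36 with lactoferrin+PM2.5 and -0.98 ± 0.36 with PM2.5 (adjusted p = 0.0413 and 0.0591), but its control libraries, at 1.29, 2.04 and 0.485 FPKM, overlapped both exposed groups. LINC02522, the shortest of these at 256 bp, had -0.96 ± 0.28 with lactoferrin+PM2.5 and -0.65 ± 0.28 with PM2.5 (adjusted p = 0.0226 and 0.0974). Calls for 4 of these 5 genes, LINC01611, LINC02416, LINC01781 and LINC02522, were lost when single libraries were left out. Without control replicate 1 the adjusted p was 0.0566 for LINC01611, 0.0993 for LINC02416, 0.0976 for LINC01781 and 0.0772 for LINC02522. Other single libraries whose removal ended a call were lactoferrin+PM2.5 replicate 1 (LINC01611, LINC02416 and LINC01781), lactoferrin+PM2.5 replicate 3 (LINC02416 and LINC01781), lactoferrin+PM2.5 replicate 2 (LINC02522), control replicate 2 (LINC01781 and LINC02522), control replicate 3 (LINC02416) and PM2.5 replicate 1 (LINC01781). The log2 fold changes under these removals lay between -1.06 and -0.67 for the decreases and between 0.70 and 0.84 for the increases.

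Libraries of a group differed with transcript length. In the lactoferrin+PM2.5 group, replicate 1 was the lowest of its group in 28 of the 53 longer LINC RNAs and in 11 of the 53 shorter ones, split at 1895.5 bp. Its median difference from the mean of the other 2 libraries was -0.07 (log2) in the longer and 0.23 in the shorter genes, and that of replicate 3 was 0.07 and -0.20. Protein-coding genes split at 5099.5 bp had medians of -0.10 and 0.12 in lactoferrin+PM2.5 replicate 1. Replicate 1 had the same signs in the other groups. It was the lowest in 22 longer and 10 shorter LINC RNAs with PM2.5 (medians -0.03 and 0.10), and in 25 longer and 14 shorter ones in control (medians -0.05 and 0.11). The part of this in the comparisons was not tested.

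**Figure D5:**
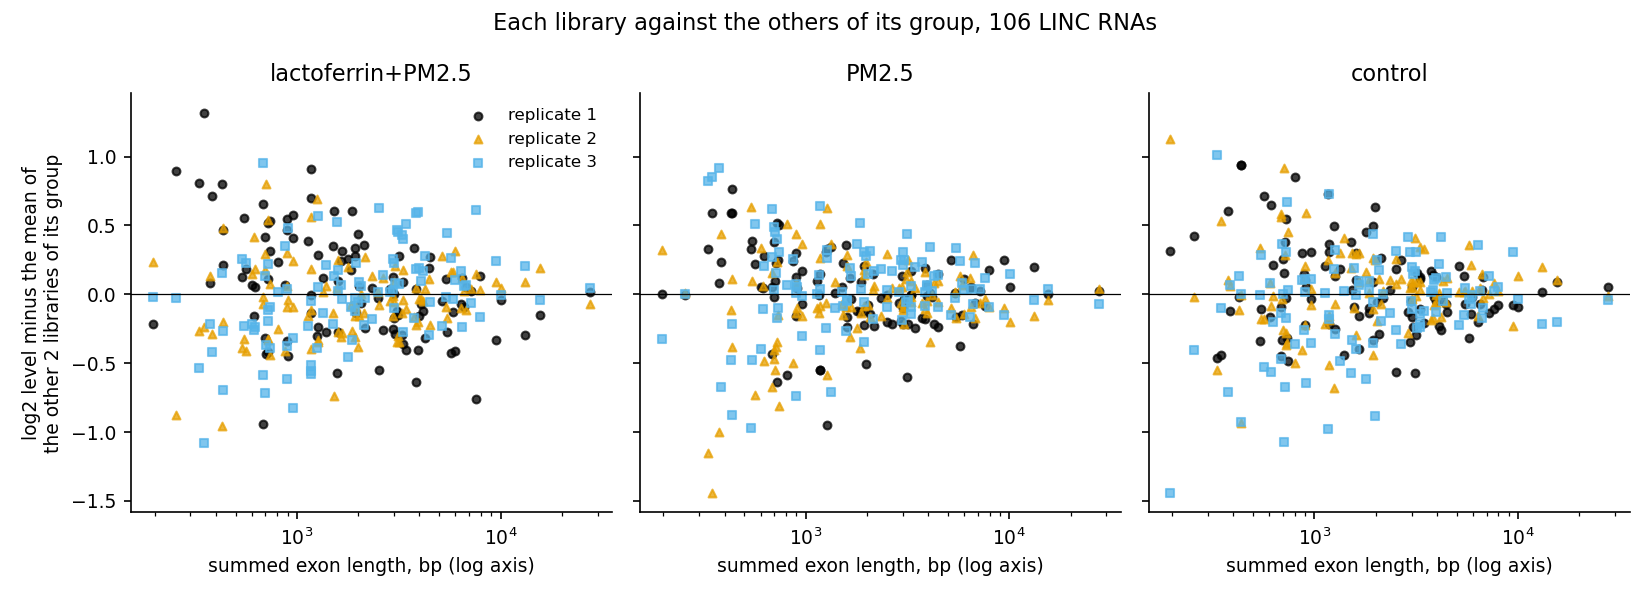
Difference of each library from the mean of the other 2 libraries of its group (log2 scale) for the 106 LINC RNAs, against summed exon length (log axis), in lactoferrin+PM2.5, PM2.5 and control. In lactoferrin+PM2.5, replicate 1 tends to lie above 0 among short genes and replicate 3 below it, and the spread narrows with length in all 3 groups.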

How the data were processed

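RNA from 9 HK-2 libraries, 3 per group, was profiled by RNA sequencing. The deposited values are given per gene with Ensembl identifiers. Their unit is not given in the sources used here, and the deposited values were read as FPKM because of their steps and sums. The submitters' processing notes name HISAT2 2.1.0, featureCounts 1.6.0, Trimmomatic 0.38, DESeq2 1.22.1, CASAVA, FastQC, MultiQC and build GRCh38, without roles. Of the gene identifiers, 58611 had a length in GENCODE v29, whose symbols defined the LINC genes. Each library's low values were multiples of the value of 1 fragment, and 85.9% to 87.2% of them came out whole within 0.05 of a fragment; in 98 of the 106 LINC genes every library did.

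FPKM values were divided by TMM factors (0.943 to 1.037), transformed as log2(FPKM + 0.5) and fitted over all 9 libraries in limma 3.58.1 (R 4.3.3) with trended, robust empirical Bayes. Genes with at least 0.5 FPKM in at least 3 libraries entered (14454), and p-values were adjusted by Benjamini-Hochberg over all of them. The fit was run on simulated data as a check of its code only, and no result here rests on that run. Figures used Python 3.11.15 and matplotlib 3.10.9. Named genes were the 10 largest called increases and decreases per comparison, the 8 of highest mean, those with published roles, those at the threshold, nearest protein-coding genes and those with opposite nominal changes. LINC01220, LINC01128, LINC01291, LINC01836 and LINC02210 fall outside this rule and were picked after their values were seen. 1 renal marker of the planned list is not reported here. The genes and lists were chosen with earlier results of these data known. Correlations of deviations ran from -0.07 to 0.18 between same-numbered libraries and from -0.18 to 0.14 between differently numbered ones. Whether the replicate numbers pair the libraries was not settled by these values, and the main fit had no replicate term. Alternatives covered the pseudocount, filter, scaling, a replicate block, limma-voom on rebuilt fragments, leaving out each library, library weights and subsets of the LINC genes. Intervals cover counting error only.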

Additional observations from a re-analysis of the deposited data

How the results depend on the processing

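Of the 47 named gene results, 36 kept their direction and their side of the threshold under every alternative, and of 963 values under alternatives 930 did, 28 lost the call, 5 gained it and 0 changed sign. Left-out libraries gave 15 to 22 LINC RNAs higher and 10 to 23 lower with PM2.5 over control (median log2 fold change -0.05 to 0.01), with 25.9% to 40.9% of all genes called. They gave 0 to 0 in both directions for lactoferrin+PM2.5 over PM2.5 (median -0.04 to 0.03), with at most 0.0424% of all genes called. For lactoferrin+PM2.5 over control 17 to 24 were higher and 13 to 25 lower (median -0.09 to -0.02), with 29.7% to 37.9% of all genes called. Fewer genes passed the filter when a control library was left out, and LINC00410 and LINC02532 then had no value. Library weights gave 31 higher and 32 lower with PM2.5 over control (53.5% of all genes called), 4 higher and 6 lower for lactoferrin+PM2.5 over PM2.5 (12.6%), and 28 higher and 33 lower for lactoferrin+PM2.5 over control (57.0%). They were fitted gene by gene, a method chosen after seeing the data because the default did not converge, and the cause was not tested. With only the 60 LINC RNAs of at least 1 FPKM, 12 rose and 12 fell with PM2.5 (median 0.095), 40.0% against 35.1% of all genes. For lactoferrin+PM2.5 over control 14 rose and 14 fell (median 0.045), 46.7% against 38.5% of all genes. Fewer LINC RNAs were counted there, and these shares of all genes are at the 0.5 FPKM filter, so the levels are not like for like. With 1 FPKM needed in 3 libraries, 39.0% and 42.7% of all genes were called in the 2 comparisons with control. The shares of the 75 LINC RNAs that passed were 44.0% and 48.0%. A filter of 1 FPKM gave a median of 0.078 with PM2.5, and the 75 genes with no exon overlap a median of 0.046 for lactoferrin+PM2.5 over control. With no filter, 14 rose and 16 fell with PM2.5, 28.3% of the LINC RNAs against 11.6% of all genes, which then include those near 0. A replicate block gave 24 higher and 19 lower with PM2.5 over control (39.3% of all genes called). It gave 0 and 0 for lactoferrin+PM2.5 over PM2.5 (0.0899%), and 24 and 22 for lactoferrin+PM2.5 over control (41.7%). Whether the numbers pair the libraries is not known. Depth limits the 55 genes with under 50 fragments per library, in which small differences were not detectable.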

Other observations

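Long noncoding RNAs with functional names were read from the same limma fit for comparison. Of 47 gene entries on that list, 33 passed the filter. With PM2.5, 7 rose and 5 fell, 36.4% in all, against 35.1% of all genes tested. MIR503HG, the host of a microRNA cluster, had a log2 fold change of -2.17, MIR210HG, the host of a hypoxia-linked microRNA, of -1.07, and HOXA-AS2 of -0.97. NEAT1, the scaffold of paraspeckles, rose by 0.85, LUCAT1 by 0.70, and the snoRNA hosts GAS5 and SNHG1 by 0.58 and 0.59. MALAT1, the most abundant on the list at a mean of 62.7 FPKM, had a log2 fold change of -0.19 and did not pass the test (adjusted p = 0.444). With lactoferrin+PM2.5 over control 8 rose and 7 fell, against 38.5% of all genes tested called. Over PM2.5, none was called by limma, against 0.0484% of all genes tested. An unadjusted limma p under 0.05 was found for 6 of the 33, against 12.2% of all genes.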
